A study of Mus musculus with 6 samples.

Results

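The Fc receptors for immunoglobulin were examined as 6 genes chosen by symbol from the 54648 gene symbols of the deposited table: the activating receptors Fcgr1, Fcgr3 and Fcgr4, the inhibitory receptor Fcgr2b, the signalling chain Fcer1g and the neonatal Fc receptor Fcgrt. All 6 were found and all 6 were tested. RNA-seq was carried out on thioglycollate-elicited peritoneal cells from C57BL/6 mice, 6-8 weeks of age, with 3 libraries from wildtype (WT) mice and 3 from FOXO3 knockout (FOXO3 KO) mice. Mice of both groups had standard chow and were injected intraperitoneally with 3% thioglycollate, a sterile irritant to which monocytes are recruited, and the cells were collected 4 days later. Both groups were littermates, male and female, that carried either no copy or only copies of the knockout allele. The knockout was not limited to macrophages, the peritoneal cells were not sorted, and whether a library came from 1 mouse is not given in the sources used here. P-values therefore measure the spread between these libraries.

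Fc receptors let macrophages bind antibody-coated particles. Fcgr1 encodes the high-affinity IgG receptor, Fcgr3 a low-affinity receptor and Fcgr4 a receptor of intermediate affinity, and all of these depend on the chain encoded by Fcer1g, whose immunoreceptor tyrosine-based activation motif (ITAM) is phosphorylated by Src-family kinases and recruits the kinase Syk. Fcgr2b, in contrast, carries an immunoreceptor tyrosine-based inhibitory motif (ITIM) that recruits the lipid phosphatase SHIP-1, encoded by Inpp5d, so the balance of activating receptors to Fcgr2b is commonly used to describe how readily a macrophage responds to immune complexes. Fcgrt encodes the heavy chain of FcRn, which pairs with beta-2-microglobulin and returns internalised IgG to the cell surface instead of letting it be degraded.

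The coding bases of the 2 signalling motifs are shown because they set the activating chain apart from the inhibitory receptor. They were read from GENCODE M21 transcripts on GRCm38, the same assembly as the mm10 build named in the submitters' processing notes, and found by searching the last 110 residues of each translated coding sequence. The capitals mark the tyrosine codons. The Fcer1g motif codes for residues 65 to 79 of 86, lies on the minus strand at chr1:171229889-171230072 and is split by an intron between exons 4 and 5. The Fcgr2b motif codes for residues 317 to 322 of 340 and lies on the minus strand at chr1:170961071-170961088, in exon 10 of 10.
Fcer1g ITAM: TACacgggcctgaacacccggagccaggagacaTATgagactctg
Fcgr2b ITIM: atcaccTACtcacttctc

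The ITAM pattern was found in Fcer1g alone among the 6 genes. The looser ITIM pattern also matched at 4 other places, in Fcgr1, Fcgr4 and Fcer1g, and nothing was read from those matches. Of the 6 genes, 4 lie within 276 kb of chromosome 1: Fcgr2b (170958617-170976547), Fcgr4 (171018920-171029761), Fcgr3 (171051174-171064935) and Fcer1g (171229572-171234365). Fcgr1 lies on chromosome 3 (96282909-96293969) and Fcgrt on chromosome 7 (45092990-45103851).

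Library totals were between 28083572 and 36424331 estimated counts, and each of the 6 genes had between 2226 and 24890 counts in every library, so counting error alone was between 0.634% and 2.12%. Expression is given as CPM, the counts scaled to a common library size after TMM, edgeR's factor for differences in composition. The targeted gene, Foxo3, had 117, 107 and 73.1 CPM across WT 1, 2 and 3. It had 4.71 and 4.29 CPM across FOXO3 KO 1 and 3, whereas the library labelled FOXO3 KO 2 had 104 CPM, against its label. WT 3 stood apart. Pearson's r across 8172 genes, which are not independent replicates, lay from 0.796 to 0.884 where WT 3 was paired with any other and between 0.964 and 0.987 for all other pairs. B cell markers summed to 3251 CPM in WT 3 and to between 128 and 686 CPM in the other libraries. The main values below therefore use all 6 libraries under their labels. For some of them, values without the library labelled FOXO3 KO 2 or without WT 3 are added. Where such a value is not given, it may still differ from the main one. Macrophage markers (8 genes, among them Adgre1, Csf1r and Cd68) summed to between 11911 and 17167 CPM, the lowest again in WT 3. Most of this sum was Lyz2, which had 7746 CPM in WT 3. The markers did not all go the same way. Adgre1 and C1qa were highest in WT 3, at 920 and 811 CPM, and the others were lowest there.

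Expression of the activating receptors did not differ between groups beyond the spread between libraries. Fcgr1 was 151, 175 and 62.2 CPM across WT 1, 2 and 3 and 152, 178 and 142 CPM across FOXO3 KO 1, 2 and 3. Thus 5 of the 6 libraries lay close together and WT 3 lay far below them. The log2 fold change was 0.28 (95% interval -0.61 to 1.18, adjusted p = 0.889 in the quasi-likelihood test of edgeR), and it was 0.18 (-0.95 to 1.31) without the library labelled FOXO3 KO 2 and -0.04 (-0.33 to 0.25) without WT 3.

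Fcgr3 had the highest mean CPM of the 6 genes in both groups. Its expression was 689, 795 and 444 CPM across WT 1, 2 and 3 and 553, 735 and 555 CPM across FOXO3 KO 1, 2 and 3. FOXO3 KO 1 and 3 lay below WT 1 and 2 but above WT 3, and the library labelled FOXO3 KO 2 lay between WT 1 and 2, so the groups overlapped. The log2 fold change was -0.07 (95% interval -0.69 to 0.56, adjusted p = 0.964 from the same edgeR test), -0.21 (-0.97 to 0.54) without the library labelled FOXO3 KO 2 and -0.26 (-0.64 to 0.11) without WT 3.

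Fcgr4 was 141, 187 and 82.4 CPM across WT 1, 2 and 3 and 127, 227 and 118 CPM across FOXO3 KO 1, 2 and 3. The highest value of all was in the library labelled FOXO3 KO 2, whose Foxo3 was at the WT level, and the lowest was in WT 3. The log2 fold change was 0.20 (95% interval -0.70 to 1.11, adjusted p = 0.912 from edgeR). It changed sign to -0.16 (-1.06 to 0.75) without the library labelled FOXO3 KO 2 and to -0.05 (-0.77 to 0.67) without WT 3.

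With both doubtful libraries left out, a setting added after the data were seen, Fcgr3 and Fcgr4 were each lower in FOXO3 KO 1 and 3 than in WT 1 and 2. For Fcgr3 the log2 fold change was -0.42 (95% interval -0.75 to -0.09, unadjusted p = 0.0206 and adjusted p = 0.449 from edgeR). For Fcgr4 it was -0.42 (95% interval -0.79 to -0.04, unadjusted p = 0.0365 and adjusted p = 0.516 from edgeR). Neither met the FDR threshold of 0.05, and 8.87% of all genes in this fit had an unadjusted p under 0.05.

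Over all 6 libraries, the inhibitory receptor Fcgr2b varied less than the activating receptors. It was 554, 525 and 424 CPM across WT 1, 2 and 3 and 478, 546 and 618 CPM across FOXO3 KO 1, 2 and 3. The highest library was 1.46 times the lowest, against 1.79 times for Fcgr3, 2.75 times for Fcgr4 and 2.86 times for Fcgr1. WT 3 was the lowest library for each of these genes. Without WT 3, Fcgr1 lay between 142 and 178 CPM and Fcgr2b between 478 and 618 CPM, so Fcgr2b was then no steadier than Fcgr1. Fcgr3 (553 to 795 CPM) and Fcgr4 (118 to 227 CPM) still varied more. On the log2 scale Fcgr2b differed by 0.13 (95% interval -0.29 to 0.54, adjusted p = 0.892 from edgeR), and it was 0.13 (-0.44 to 0.70) without the library labelled FOXO3 KO 2 and 0.03 (-0.28 to 0.34) without WT 3. B cells also express Fcgr2b. In WT 3 B cell markers were highest and Fcgr2b was lowest, and the part of B cells in its level was not tested. Fcgr2b has spliced forms, which counts per gene do not tell apart.

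Fcer1g, the chain that all 3 activating receptors share, was 394, 462 and 214 CPM across WT 1, 2 and 3 and 458, 416 and 378 CPM across FOXO3 KO 1, 2 and 3. All libraries but WT 3 lay between 378 and 462 CPM. The log2 fold change was 0.23 (95% interval -0.47 to 0.93, adjusted p = 0.887 from edgeR), and it was -0.03 (-0.32 to 0.27) without WT 3.

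Fcgrt was 171, 160 and 124 CPM across WT 1, 2 and 3 and 141, 138 and 163 CPM across FOXO3 KO 1, 2 and 3. With WT 3 included, it had the smallest spread of the 6 genes, the highest library being 1.38 times the lowest. Its log2 fold change was -0.04 (95% interval -0.41 to 0.33, adjusted p = 0.955 from edgeR), 0.00 (-0.49 to 0.49) without the library labelled FOXO3 KO 2 and -0.16 (-0.40 to 0.08) without WT 3. B2m, which encodes the partner of FcRn, was 1524, 1799 and 1199 CPM in WT and 1534, 1989 and 1516 CPM in FOXO3 KO. For B2m the log2 fold change came to 0.16 (standard error 0.23, edgeR adjusted p = 0.902), and it was 0.02 without the library labelled FOXO3 KO 2 and 0.03 without WT 3.

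**Figure D1:**
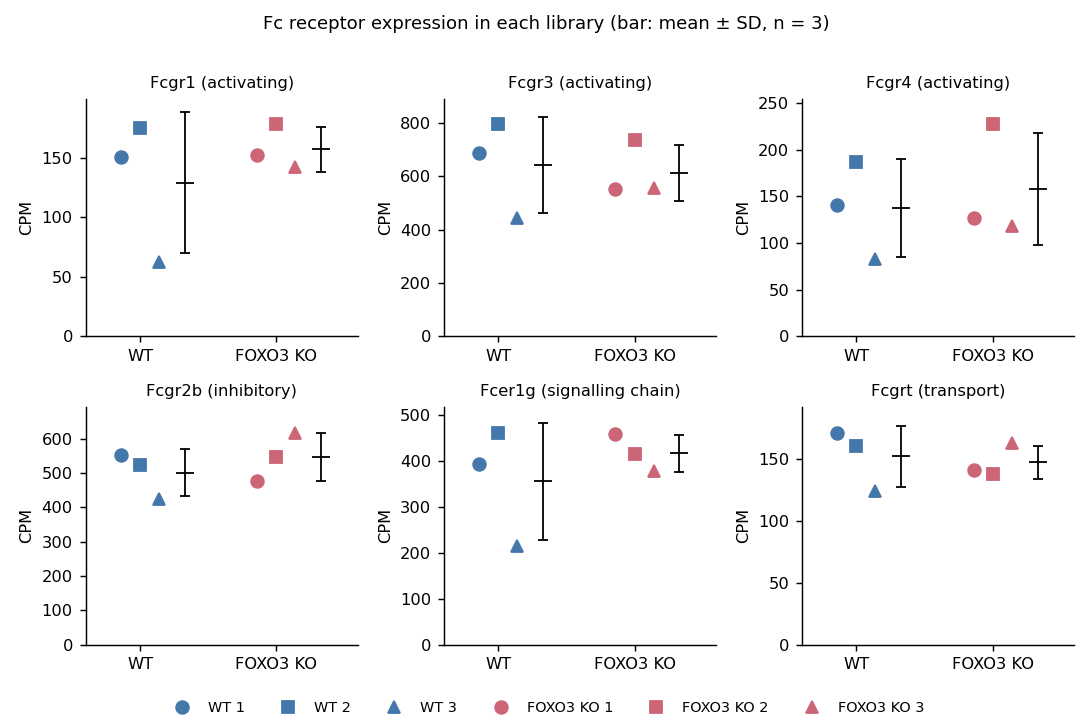
Expression of the 6 Fc receptor genes in CPM (y axis) in each of the 3 WT and 3 FOXO3 KO libraries (points), with the group mean ± SD beside them. The WT 3 triangle is the lowest point in all 6 panels, and the groups overlap in each.

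Calls were made where the FDR was under 0.05 and the fold change over 1.5, and by these the quasi-likelihood test called 0 of the 6 genes over all 6 libraries, and 0% of the 15608 genes tested. At an unadjusted p under 0.05 it again reached 0 of the 6, against 5.68% of all genes. Both counts were 0 without the library labelled FOXO3 KO 2, where 0% and 4.30% of all genes passed, and without WT 3, where 0% and 8.41% passed. DESeq2 called 0 of the 6 over all 6 libraries and 0.890% of all genes with an adjusted p. Foxo3, the gene removed, was itself not called by edgeR over all 6 libraries (log2 fold change -1.40, adjusted p = 0.859). Nor did edgeR call Foxo3 without the library labelled FOXO3 KO 2 (-4.46, adjusted p = 0.105 from edgeR) or without WT 3 (-1.57, adjusted p = 0.833 from edgeR). DESeq2 gave it no adjusted p over all 6 libraries. It called Foxo3 without the library labelled FOXO3 KO 2 (-4.46, adjusted p = 1.86e-38 from DESeq2). With both that library and WT 3 left out, edgeR called Foxo3 too (-4.64, adjusted p = 0.00182 from edgeR). The 0 calls of the quasi-likelihood test in the other settings therefore do not show unchanged expression. At the same thresholds the paper reports genes in both directions. Over all 6 libraries DESeq2 gave log2 fold changes of -1.40 for Foxo3, 3.92 for Cxcr2, 2.85 for S100a8 and 5.50 for S100a9. Without the library labelled FOXO3 KO 2 they were -4.46, 4.41, 3.31 and 6.05. The folds printed in the paper for these genes lie near the latter values on that scale. The paper names no library as left out, but its list may not rest on the same libraries as the main values here. The groups did not overlap for 0 of the 6 genes, against 12.4% of all genes, and for 0 of the 6 when FOXO3 KO 1 and 3 alone were set against WT, against 20.1% of all genes. An exact two-sided permutation test over the libraries gave p between 0.5 and 1 for each gene, where the smallest p that 3 against 3 libraries allow is 0.10.

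A p that misses the threshold does not show equal expression. The 95% intervals over all 6 libraries reached up to 1.18 for Fcgr1 and 1.11 for Fcgr4 on the log2 scale, while for Fcgr2b and Fcgrt they lay between -0.41 and 0.54. The median log2 fold change of the 6 genes was 0.16, that of all genes tested was -0.01, and that of the 6 genes was -0.04 without WT 3.

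**Figure D2:**
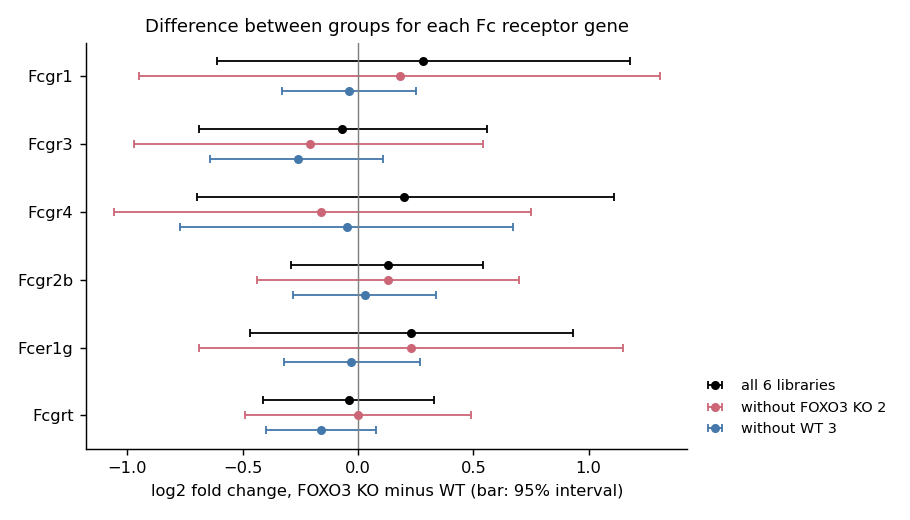
The log2 fold change of each gene, FOXO3 KO minus WT (x axis), from edgeR's quasi-likelihood fit over all 6 libraries, without the library labelled FOXO3 KO 2 and without WT 3, with bars for the 95% interval. Each of the 18 intervals includes 0, and for Fcgr1 the interval narrows from -0.61 to 1.18 over all libraries to -0.33 to 0.25 without WT 3.

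WT 3 lay farthest from the other libraries for Fcgr1 and Fcer1g. All 6 genes were lowest in WT 3, as were 37.5% of all genes tested. Relative to its mean over the 6 libraries on the log2 scale, Fcgr1 was -1.12 in WT 3, Fcer1g was -0.81, Fcgr4 was -0.76 and Fcgr3 was -0.47, while Fcgr2b and Fcgrt were only -0.29 and -0.26. The 6 genes together summed to 1351 CPM in WT 3 and to between 1909 and 2304 CPM in the others. This sum was 11.3% of the summed macrophage markers in WT 3 and between 13.4% and 14.4% in the other 5 libraries. The summed markers were mostly Lyz2 in every library. In bulk RNA, fewer cells of a type and less RNA per cell cannot be told apart. The part of the B cell content in these low values was not tested.

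**Figure D3:**
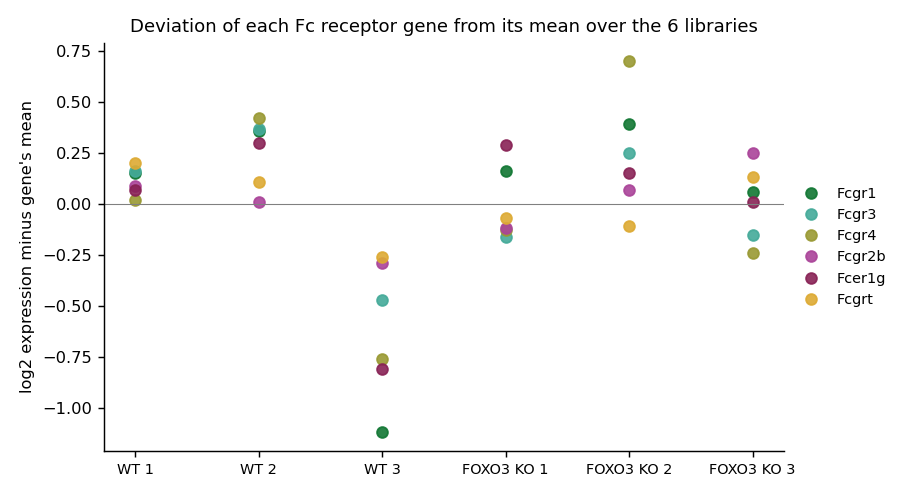
The log2 expression of each gene minus its mean over the 6 libraries (y axis), by library (x axis). In WT 3 all 6 points lie below 0, from -0.26 for Fcgrt to -1.12 for Fcgr1, and in the library labelled FOXO3 KO 2 the point of Fcgr4 lies highest, at 0.70.

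The balance of activating to inhibitory receptors was measured in each library as the mean log2 expression of Fcgr1, Fcgr3 and Fcgr4 minus that of Fcgr2b, from which gene length cancels when libraries are compared. It was -1.17, -0.82 and -1.68 in WT 1, 2 and 3 and -1.11, -0.82 and -1.55 in FOXO3 KO 1, 2 and 3. The group means were -1.23 ± 0.43 (SD, n = 3) in WT and -1.16 ± 0.37 (SD, n = 3) in FOXO3 KO. They differed by 0.07, well within the spread of either group, and by -0.11 without the library labelled FOXO3 KO 2 and -0.16 without WT 3. When the CPM of the 3 activating receptors were summed instead, the difference had the opposite sign, -0.06. Without both libraries this summed form differed by -0.38, with FOXO3 KO 1 and 3 (0.80 and 0.40) below WT 1 and 2 (0.83 and 1.14). The balance by the mean was then -0.33, and its groups overlapped. Both values rest on 2 against 2 libraries. No p is given for a value combined over these genes.

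Fcgr3, the most abundant activating receptor, was higher than Fcgr2b in counts in all libraries but FOXO3 KO 3, its log2 difference from Fcgr2b being 0.32, 0.60 and 0.06 in WT 1, 2 and 3 and 0.21, 0.43 and -0.15 in FOXO3 KO 1, 2 and 3. That of Fcgr4 was -1.97, -1.49 and -2.36 in WT and -1.90, -1.26 and -2.38 in FOXO3 KO. That of Fcgr1 was -1.87, -1.59 and -2.76 in WT and -1.65, -1.61 and -2.12 in FOXO3 KO. For each of the 3 receptors, the lowest value of the WT group was in WT 3 and the lowest of the FOXO3 KO group in FOXO3 KO 3, a pattern noticed after the values were seen and shared by 19.0% of all genes when set against Fcgr2b. These are also the 2 libraries with Xist, the transcript of the inactive X chromosome, at 871 and 1130 CPM, while it was under 1 CPM in the other 4. They also had the highest summed B cell markers of their groups, 3251 and 647 CPM. With Xist as a covariate, the quasi-likelihood test of FOXO3 KO against WT called 0 of the 6 genes and 0 of all genes tested. That fit did not test the libraries with Xist against those without it. The part of other cells in this pattern was not tested.

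**Figure D4:**
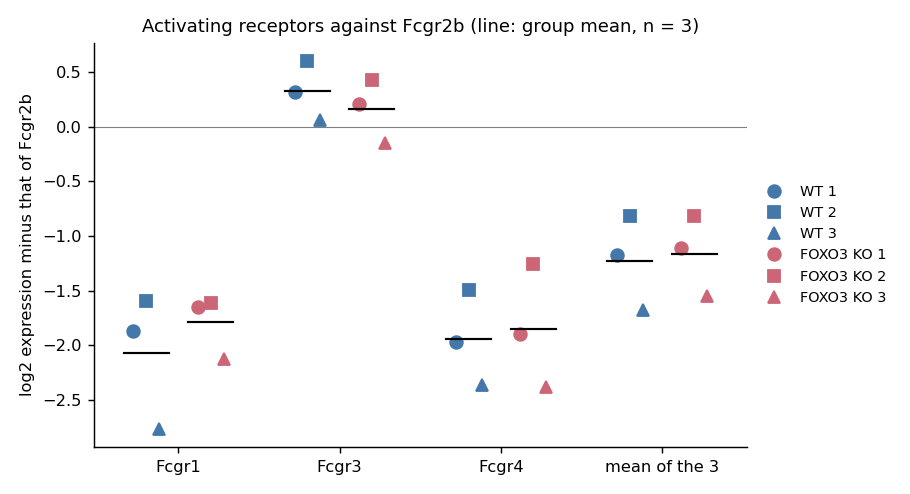
The log2 expression of each activating receptor minus that of Fcgr2b (y axis) in each library, and the mean of the 3 receptors, with lines for the group means (n = 3). For each receptor the triangles, WT 3 and FOXO3 KO 3, are the lowest points of their group, and the group means of the balance lie at -1.23 and -1.16.

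Of the 15 pairs that can be formed from the 6 genes, the log2 difference between the pair's members separated the groups for 1 pair, against 13.6% of all pairs of genes tested. This pair was Fcgr1 and Fcgr3. Fcgr1 minus Fcgr3 was -2.19, -2.18 and -2.82 in WT 1, 2 and 3 and -1.86, -2.04 and -1.97 in FOXO3 KO 1, 2 and 3, a difference of means of 0.44. Without WT 3 it was 0.23, and 2 of the 15 pairs then separated the groups, the other being Fcgr2b and Fcgrt. The share of all gene pairs in that setting was not computed, so nothing was read from this count.

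When FOXO3 KO 1 and 3 alone were set against WT, 4 of the 15 pairs separated the groups, against 21.6% of all pairs of genes tested. Fcgr1 lay higher against Fcgr3 and against Fcgr4, and both Fcgr3 and Fcgr4 lay lower against Fcer1g. Fcgr3 minus Fcer1g was 0.81, 0.78 and 1.05 in WT 1, 2 and 3, 0.27 and 0.56 in FOXO3 KO 1 and 3, and 0.82 in the library labelled FOXO3 KO 2, within the WT range. Fcgr4 minus Fcer1g was -1.47, -1.30 and -1.37 in WT, -1.84 and -1.67 in FOXO3 KO 1 and 3, and -0.87 in the library labelled FOXO3 KO 2. The counts over all 6 libraries and with FOXO3 KO 1 and 3 against WT are near those of all gene pairs. They are not particular to the Fc receptors.

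Levels were compared between genes per length, as CPM per kb of the principal GENCODE M21 transcript. In WT, Fcer1g had 529 ± 190 CPM per kb (SD, n = 3), Fcgr3 had 477 ± 134, Fcgr2b had 317 ± 43.0, Fcgr4 had 109 ± 41.7, Fcgrt had 85.7 ± 13.9 and Fcgr1 had 49.9 ± 22.9 CPM per kb. The same order was seen in FOXO3 KO, from 619 ± 59.6 CPM per kb for Fcer1g and 456 ± 77.7 for Fcgr3 to 60.7 ± 7.24 for Fcgr1. Fcer1g lay above Fcgr3 in 5 of the 6 libraries and Fcgr4 above Fcgrt in 5, so these neighbours did not differ in every library, whereas Fcgr3 lay above Fcgr2b, Fcgr2b above Fcgr4 and Fcgrt above Fcgr1 in all 6. The place of Fcgr2b depended on the length used. With the 5790 bases of all its merged exons in place of the 1578 bases of the principal transcript it had 86.5 ± 11.7 CPM per kb in WT, and Fcgr4 then lay above it in 4 of the 6 libraries.

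Fcgr3 and Fcgr2b are close relatives, and 13.4% of the 31-base words in Fcgr3 transcripts also occur in Fcgr2b, as do 4.15% of those of Fcgr2b in Fcgr3. The estimated counts of both were fractional (over 0.01 from a whole number) in all 6 libraries, while those of Fcgr1 were whole in all. Those of Fcgrt were also fractional in all 6, those of Fcer1g in 5 and those of Fcgr4 in 2. Fractional counts are therefore not particular to Fcgr3 and Fcgr2b and do not show that reads were shared between them. Because of the shared words, how the authors' counting divided reads between Fcgr3 and Fcgr2b adds to the uncertainty of their comparison. Fcgr1 and Fcer1g share no such word with any other gene.

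Of the genes known to act around these receptors, 104 in 9 lists were examined, of which 99 were tested. No gene of these lists was called, the smallest adjusted p being 0.777 from edgeR, and 2 were higher and 1 lower at an unadjusted p under 0.05, which is 3.03% of the 99 against 5.68% of all genes.

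The ligands of Fc receptors, the IgG and IgE heavy chains, were measured through transcripts of B lineage cells. Of 5 heavy chain genes, the 4 of IgG were tested, and that of IgE did not pass the filter on low counts. These 4 had lower values in FOXO3 KO, their median log2 fold change being -1.89, or -0.91 without WT 3, and none was called. Ighg2b was 7.34, 3.81 and 19.7 CPM in WT and 1.84, 1.5 and 5.67 CPM in FOXO3 KO (log2 fold change -1.77, standard error 0.77, adjusted p = 0.839 from edgeR). It was -0.88 without WT 3. For Ighg1 the log2 fold change was -2.26 and for Ighg2c -2.02, or -0.95 and -0.58 without WT 3, with all libraries of both genes under 3 CPM. The 8 B cell markers moved with these genes, all 8 having lower values, with a median of -2.02 and of -0.50 without WT 3. Of 13 other Fc receptor genes, 10 were tested, 8 of them had lower values and none was called. Fcer2a, the low-affinity IgE receptor of B cells, was 17.1, 8.26 and 135 CPM in WT and 2.52, 12.4 and 8.60 CPM in FOXO3 KO. Fcmr, the receptor for IgM, was 30.1, 13.1 and 205 CPM in WT and 6.52, 17.9 and 25.8 CPM in FOXO3 KO, and Fcrl1, of B cells, was 15.9, 10.4 and 73.3 CPM against 9.89, 12.4 and 15.2 CPM. Without WT 3 the log2 fold changes of these 3 went from -2.77 to -0.69, from -2.30 to -0.36 and from -1.41 to -0.06. The median of the 10 was -1.07, and it was 0.04 without WT 3. Others of the 10 did not share this pattern: Fcrlb, named after its values were seen, was lowest in WT 3, at 0.615 CPM, and Fcrls was highest in FOXO3 KO 3, at 68.9 CPM. The IgE receptor genes Fcer1a and Ms4a2, both of mast cells, were highest in WT 3 as well, Ms4a2 at 7.86 CPM. Fcer2a is also one of the 8 B cell markers.

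Kinases and adaptors downstream of the ITAM showed a median log2 fold change of 0.00, with 12 of 23 tested genes higher and 11 lower, and none called. Syk was 767, 749 and 909 CPM in WT and 627, 666 and 712 CPM in FOXO3 KO. All FOXO3 KO libraries lay below all WT libraries. Its difference was -0.27 on the log2 scale (standard error 0.15, adjusted p = 0.843 from edgeR), a separation shared by 12.4% of all genes in either direction. Fgr, a Src-family kinase, was 158, 154 and 93.1 CPM in WT and 185, 172 and 209 CPM in FOXO3 KO, and here all FOXO3 KO libraries lay above WT (log2 fold change 0.48, standard error 0.22, adjusted p = 0.839 from edgeR). Without WT 3 the values were -0.17 for Syk and 0.29 for Fgr. Lyn, another kinase of this family, had a log2 fold change of -0.05, with the opposite sign, 0.17, without WT 3. The adaptor Lat had one of -0.53, and of -0.14 without WT 3.

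The brakes on Fc receptor signalling, 13 genes, had a median of 0.03 on the log2 scale, 8 higher and 5 lower, and none was called. Inpp5d, the phosphatase recruited by Fcgr2b, was 224, 198 and 223 CPM in WT and 210, 211 and 241 CPM in FOXO3 KO, its log2 fold change being 0.04 (standard error 0.12). Ptpn6, which encodes the phosphatase SHP-1, was 319, 353 and 356 CPM in WT and 310, 341 and 326 CPM in FOXO3 KO, its log2 fold change being -0.07 (standard error 0.11). Both thus stayed within a narrow range in all 6 libraries. The phosphatase gene Ptpn22 (-0.54), the adaptor gene Dok3 (-0.50) and Pag1 (0.24) had the smallest p of this list. Without WT 3, in which all 3 were highest, these were -0.11, -0.04 and 0.48.

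Genes of the phagocytic cup, which build the actin rim around a bound particle, were higher in FOXO3 KO for 20 of 24 genes. Of all 15608 genes tested, 7623 were higher. The median log2 fold change of the 24 was 0.11, and it was 0.02 without WT 3. None was called. Dock1, an activator of Rac, was 69.3, 62.8 and 41.6 CPM in WT and 81.2, 71.3 and 80.6 CPM in FOXO3 KO (log2 fold change 0.42, standard error 0.20, adjusted p = 0.839 from edgeR), with every FOXO3 KO library above WT. It was 0.24 without WT 3. Log2 fold changes were 0.33 for the kinase gene Pak1, or 0.17 without WT 3, and 0.16 for the phospholipase gene Pld1.

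Other inhibitory receptors with an ITIM, 12 genes, had a median of 0.28 on the log2 scale and of -0.05 without WT 3, and they held the 2 genes that were higher at an unadjusted p under 0.05. Ceacam1 was 164, 147 and 161 CPM in WT and 193, 186 and 203 CPM in FOXO3 KO, with the groups apart (log2 fold change 0.30, standard error 0.10, unadjusted p = 0.0231 and adjusted p = 0.777 from edgeR). Pilra was 55.7, 70.9 and 77.6 CPM in WT and 93.8, 83.5 and 92.8 CPM in FOXO3 KO (log2 fold change 0.40, standard error 0.14, unadjusted p = 0.0301 and adjusted p = 0.827 from edgeR). In both, the library labelled FOXO3 KO 2 lay on the FOXO3 KO side, although its Foxo3 was at the WT level. Pecam1 had a log2 fold change of -1.68 and was highest in WT 3, at 108 CPM, and without WT 3 the value was -0.32. Of the adaptors that carry an ITAM apart from Fcer1g, Tyrobp was 759, 977 and 461 CPM in WT and 792, 789 and 653 CPM in FOXO3 KO, its log2 fold change being 0.02 (standard error 0.29) and -0.21 without WT 3. Cd247 had one of -0.92, but it was at 14.4 CPM in WT 3 against 2.83 to 5.25 CPM in the other libraries, and without WT 3 the sign turned, to 0.18. Hcst, which signals without an ITAM, had one of -0.19.

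Interferon-gamma raises Fcgr1 and Fcgr4 in macrophages, so genes of its signalling were set beside them. Of 10, 9 were tested, 6 were higher and 3 lower, with a median of 0.13, of -0.05 without the library labelled FOXO3 KO 2 and of -0.04 without WT 3. None was called. Irf1 was 126, 78.3 and 131 CPM in WT and 64.5, 186 and 149 CPM in FOXO3 KO, and its highest value, like that of Fcgr4 and Fcgr1, was in the library labelled FOXO3 KO 2. The other libraries did not share this likeness. Irf1 was highest of the WT group in WT 3, where Fcgr1 and Fcgr4 were lowest, and lowest of all in FOXO3 KO 1. Irf1 differed by 0.25 on the log2 scale, and by -0.06 without the library labelled FOXO3 KO 2. Log2 fold changes were 0.20 for the receptor gene Ifngr1 and -0.12 for Jak1, and both were -0.04 without WT 3. Ifng did not pass the filter on low counts.

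Promoters of the 6 genes, 250 bases before to 50 after each start in RefSeq on GRCm38.p6, were searched on both strands for GTAAACA, the core bound by FoxO factors, and for TTCNNNGAA, the interferon-gamma activation site, since Foxo3 was the gene removed and Fcgr1 is known to respond to interferon-gamma. GTAAACA was found in 1 of the 6 genes, Fcgrt, starting 116 bases before its start, and in 3.65% of 32851 promoter windows. These windows leave out 1 chromosome, which holds none of the 6 genes. The shares count windows instead of genes, and Fcgr3 had 2 windows. TTCNNNGAA was found in 1 of the 6, Fcgr1, starting 109 bases before its start, and in 8.30% of windows. The matches are printed on the gene's strand with the match in capitals, from the windows chr7:45103773-45104072 (Fcgrt) and chr3:96293920-96294219 (Fcgr1), both on the minus strand.
Fcgrt: ctccaaacgaGTAAACAtagaagctgt
Fcgr1: aaggatgtatTTCCCAGAAaagggaacag

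A match of letters is not a bound site. For Fcgrt, the log2 fold change of FOXO3 KO 1 and 3, in which Foxo3 was low, against WT was 0.00 (95% interval -0.49 to 0.49). With WT 3 left out as well it was -0.12 (-0.40 to 0.16). Whether the match is bound was not tested. The motif GAGGAAGT of PU.1, the macrophage lineage factor, was found in Fcgr4 alone of the 6 and in 3.20% of windows. No match of a motif in a window says only that these letters are not in it.

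The genes whose log2 CPM followed each Fc receptor gene most closely over the 6 libraries are given as a description, without a test. Among 8172 genes compared, with a mean of at least 16 CPM, those closest to Fcgr3 were Oaz2 (Pearson's r = 0.989), Entpd1 (0.987) and Keap1 (0.984), and those closest to Fcgr4 were Agtrap (0.987), B2m (0.987) and Prdx5 (0.983). Closest to Fcgr2b were Rsrp1 (0.990), Ccr3 (0.961) and Arhgef37 (0.953), and closest to Fcgrt were Clk3 (0.998), Tyk2 (0.974) and Rassf2 (0.969). Fcgr1 (Cers6, 0.998, Osbpl3, 0.998, and Apaf1, 0.998) and Fcer1g (Ubxn4, March8 and Renbp) had 847 and 1387 genes at r of 0.95 or more, against 44 for Fcgr3, 10 for Fcgr4, 8 for Fcgrt and 4 for Fcgr2b. The low value of WT 3 enters each of these correlations.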

How the data were processed

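For 3 WT and 3 FOXO3 KO libraries of peritoneal cells, the authors deposited estimated counts per gene symbol without normalization. Reads were 76 bp, paired-end. The submitters' processing notes name STAR 2.6.1d, kallisto 0.46.0, DESeq2 and mm10, with no role or order, and the annotation is not given in the sources used here. Values were rounded before testing, 81.4% being whole already (tolerance 0.01).

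Groups came from the sample titles. Group differences in counts were fitted in R 4.3.3 with edgeR 4.0.16 (filterByExpr, TMM, glmQLFit, glmQLFTest), all 6 libraries under their labels, with Benjamini-Hochberg adjustment over the 15608 genes tested. Calls needed an FDR under 0.05 with a fold change over 1.5, thresholds taken from the paper. Standard errors were derived from the log2 fold change and the F statistic, and 95% intervals used the test's degrees of freedom. Log2 differences within a library used log2(CPM + 0.5). DESeq2 1.42.0 and limma 3.58.1 gave alternatives, Python 3.11.15 with pandas 2.3.3 and scipy 1.17.1 the other tables. The fits were also run on simulated counts, in which expected expression differed between libraries by group alone. No simulated library was like WT 3 or the library labelled FOXO3 KO 2. That run therefore does not show how the tests fare with such libraries.

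No 2 libraries agreed within sampling noise (chi-square per degree of freedom of at least 22). Same-numbered libraries deviated from their group means with correlations of 0.45, -0.06 and 0.65 for numbers 1, 2 and 3. Both libraries numbered 3 had high Xist. WT 2 and FOXO3 KO 1, which differ in number, had a higher correlation, 0.74. The replicate numbers were therefore not taken to pair the libraries. The members and lists were chosen with earlier results of these data known. Named genes are the 6 members, Foxo3, Syk, Lyn, Inpp5d, Ptpn6, B2m, Tyrobp, the 3 genes with the smallest p of each list and the 3 closest genes to each member. Others, among them Xist, Fcer1a, Ms4a2, Fcrlb, Fcrls, Ifng, Lyz2, C1qa and the neutrophil markers, were named after their values were seen. Marker lists of neutrophils, mast cells, NK, dendritic and T cells, eosinophils and monocytes are given in the closing section.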

Additional observations from a re-analysis of the deposited data

How the results depend on the processing

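No Fc receptor gene was called under any of the 20 alternatives. Log2 fold changes without each library in turn ranged from -0.04 to 0.56 for Fcgr1, -0.26 to 0.12 for Fcgr3, -0.16 to 0.50 for Fcgr4, 0.03 to 0.21 for Fcgr2b, -0.03 to 0.46 for Fcer1g and -0.16 to 0.05 for Fcgrt, so 5 of the 6 changed sign and Fcgr2b did not. Differences of mean log2(CPM + 0.5) ranged likewise from -0.05 to 0.69, -0.28 to 0.14, -0.11 to 0.48, 0.01 to 0.22, -0.04 to 0.52 and -0.17 to 0.06, and the balance from -0.16 to 0.27. Signs also changed in DESeq2 without the library labelled FOXO3 KO 2 (Fcgr4 -0.16, Fcgrt 0.01), in DESeq2 without WT 3 (Fcgr1 -0.06, Fcgr4 -0.07, Fcer1g -0.04), and without both (Fcgr1 -0.15, Fcgr4 -0.42, Fcer1g -0.03). The balance was -0.33 without both, and -0.06 with the activating receptors summed.

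The quasi-likelihood test called 0 genes in all (887 at an unadjusted p under 0.05), DESeq2 160, or 108 without the library labelled FOXO3 KO 2 and 165 without WT 3, the likelihood ratio test 109, and the quasi-likelihood test without both libraries 4. Of the listed genes, DESeq2 without WT 3 called 1, Siglece (1.73). The replicate number as a block gave 0 calls and log2 fold changes of 0.40 for Fcgr1, -0.04 for Fcgr3, 0.22 for Fcgr4, 0.13 for Fcgr2b, 0.29 for Fcer1g and -0.03 for Fcgrt. The replicate block was also used without the library labelled FOXO3 KO 2, a setting added after the data were seen. It leaves a single residual degree of freedom, and 284 genes were called, 6 of them on the lists. These 6 were Ighg2b (-1.88), Fcer2a (-3.42), Fcmr (-2.61), Fcrla (-2.02), Fcrl5 (-1.65) and Pecam1 (-2.04). All were lower in FOXO3 KO and highest in WT 3. In this setting Fcgr3 (0.01) and Fcgrt (0.06) changed sign. The cause of these changes was not tested. Limma-voom, other scaling factors, other filters and a covariate for Xist gave 0 calls.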

Other observations

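Markers of other cells that carry Fc receptors were measured beside the receptors, and their part in any value was not tested. Of 8 neutrophil markers 6 were tested, and these 6 had higher values in FOXO3 KO, the median being 1.66 on the log2 scale. The untested Ly6g and Camp had at most 4 and 1 counts in any library. The 8 markers summed to 204, 208 and 134 CPM in WT and 483, 216 and 412 CPM in FOXO3 KO. The quasi-likelihood test called none, and 3 reached an unadjusted p under 0.05. DESeq2 called these 3 over all 6 libraries: Cxcr2 (log2 fold change 3.92, adjusted p = 4.71e-05), S100a8 (2.85, adjusted p = 0.0175) and S100a9 (5.50, adjusted p = 0.0426). Cxcr2 was 0.886, 0.882 and 0.587 CPM in WT and 18.7, 2.23 and 14.4 CPM in FOXO3 KO, lowest of its group in the library labelled FOXO3 KO 2. The median of the tested neutrophil markers was 1.91 without the library labelled FOXO3 KO 2. It was 1.31 without WT 3, and the markers were then unlike each other. Cxcr2, S100a8 and S100a9 had log2 fold changes of 3.75, 2.45 and 5.06 in the quasi-likelihood fit. Mmp9, Retnlg and Csf3r had 0.10, -0.01 and 0.17. Neutrophils express Fcgr3 and Fcgr4. FOXO3 KO 1 and 3, which had the most neutrophil marker expression, had Fcgr4 at 127 and 118 CPM, below WT 1 and 2, while WT 3 had the lowest neutrophil marker sum and the lowest Fcgr4, 82.4 CPM. Mast cell markers, which include the IgE receptor genes, had a median of -0.80 over 8 genes and of 0.17 without WT 3, and T cell markers one of -0.92 and of 0.11 without WT 3. NK cell markers, from cells that carry Fcgr3 as their IgG receptor, summed to between 24.7 and 51.9 CPM in all libraries, with a median of 0.20, or -0.04 without WT 3. Dendritic cell markers had a median of 0.68 over 7 genes, eosinophil markers one of 0.34 over 3 tested genes and monocyte markers one of -0.25 over 5. The macrophage markers had a median of 0.11 over 8 genes. Without WT 3 the medians were 0.73 for dendritic cells, and of the opposite sign for eosinophils (-0.07), monocytes (0.20) and macrophages (-0.07). Neither the quasi-likelihood test nor DESeq2 called a gene of these other lists over all 6 libraries.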
